A study of Mus musculus with 6 samples.

Results

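The genes described here are 10 transcripts that brain researchers use to recognise neural stem cells and immature glia: the fatty acid binding protein genes Fabp7, Fabp5 and Fabp3, and the stem cell and progenitor markers Prom1, Hopx, Cd9, Rarres2, Gas1, Fut4 and Cd24a. They were chosen by gene symbol, and all 10 were found among the 23955 genes of the deposited tables. The study sequenced ribosome-bound mRNA from adult C57BL/6 mice, with 3 libraries per region. The cortical grey matter had been stripped of meninges and white matter, and the diencephalon was dissected so as to leave out the area bordering the third ventricle. All mice had the genotype Slc1a3 +/- GFP+ Rpl22HA fl/fl, combining Cre-ERT2 at the Slc1a3 (Glast) locus, a CAG-driven EGFP reporter preceded by a cat cassette, and the floxed Rpl22 allele that yields a haemagglutinin-tagged ribosomal protein after recombination. Animals of both sexes received tamoxifen at 9 weeks (3 oral doses of 0.4 mg per g at intervals of 48 hours) and were 3 months old, and each library pooled 3 mice. Recombination marks cells in which the Slc1a3 locus is active, so any such cell, and any RNA carried along in the pull-down, can contribute.

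Fatty acid binding proteins are small cytosolic carriers that hold a long-chain fatty acid in a barrel-shaped pocket and pass it to membranes, enzymes or nuclear receptors. Fabp7, the brain type, is a classical marker of radial glia and stays on in many astrocytes. The epidermal type Fabp5 is found in progenitors, glia and vessels, and the heart type Fabp3 mainly in neurons of the mature brain. The remaining genes encode surface proteins, an enzyme that makes a surface sugar, a secreted ligand and a small nuclear protein, all used to mark or sort progenitor cells. None of them is restricted to stem cells: Prom1 and Cd24a also mark ependymal cells, Cd9 also myelinating glia and vessels, and Rarres2 and Gas1 also meningeal cells.

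Expected counts per library summed to between 1733145 and 2334237. Levels are given as CPM, read counts relative to library size after scaling by the trimmed mean of M-values (TMM). Where genes are compared with each other they are given as the authors' TPM, which are corrected for gene length. The 15 listed astrocyte markers summed to 19410 to 22680 CPM in the diencephalic libraries and to 28320 to 35450 CPM in the cortical ones, more than any other cell type list, and were 1.58-fold lower in diencephalon. Slc1a3, the Cre locus, was at 741 ± 31.9 CPM in diencephalon and 1038 ± 268 CPM in cortex (SD, n = 3 each), and the tagged gene Rpl22 at 22.7 ± 3.24 and 27.0 ± 3.97 CPM. Cortical grey matter replicate 3 differed most from the other libraries of its region (chi-square per degree of freedom 6.81 and 5.91, against 2.59 between the other cortical pair). Diencephalon replicate 2 and cortical grey matter replicate 3 had 8.36 and 0 CPM of 4 Y-linked genes (Ddx3y, Eif2s3y, Kdm5d and Uty), against 144 to 164 CPM in the other libraries. In bulk libraries such as these, fewer cells of a type and less RNA per cell cannot be told apart.

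Levels of the 10 genes spanned a wide range. On the TPM scale, averaged over the 6 libraries, Fabp7 was at 666.0 and ranked 131st of 23955 genes, followed by Fabp5 at 204, Cd9 at 54.3 and Hopx at 43.8. Rarres2, Cd24a and Fabp3 followed at 24.8, 22.0 and 19.96 TPM, then Gas1 at 12.3, Prom1 at 8.04 and Fut4 at 1.67 TPM. The ranges over libraries of Fabp7 and Fabp5 were clear of each other and of the rest, and Fut4 lay below Prom1. From Cd9 down to Prom1, each gene overlapped its neighbour in this order.

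Relative to cortical grey matter, the diencephalon had lower Fabp5, Prom1 and Hopx and higher Cd24a, and Fabp7, Cd9 and Gas1 did not pass the test. These 7 passed the filter on low counts; Fabp3, Rarres2 and Fut4 did not. The test was edgeR's quasi-likelihood test over 10568 genes with a Benjamini-Hochberg adjusted p under 0.05, which called 29.7% of all genes tested, 14.9% as higher and 14.8% as lower in diencephalon. Of the 7 members, 4 were called, 3 as lower and 1 as higher. The 7 log2 differences had a median of -0.71, and those of all tested genes 0.01. The filter left out 2 members with more counts in diencephalon, Fabp3 and Fut4. Without it the median over all 10 was -0.32, with 2 called higher, Cd24a and Fut4, and 3 lower. That fit called 21.2% of all genes tested. On log2(TPM + 1), where 21.5% were called, the median was -0.09, with 2 higher and 2 lower. Fut4, again 1 of the 2 higher, entered this fit and the fit without a filter only through its diencephalic values. Neither call of Fut4 is read. For 5 of the 7 the values of one region lay wholly outside those of the other, 1 with diencephalon above and 4 below; this held for 42.6% of all tested genes, 21.8% above and 20.8% below. Over all 10 members it held for 7, 3 above and 4 below. Of the 3 above, Fabp3 and Fut4 had missed the filter, and the shares given do not cover such genes. These counts are given as a description.

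**Figure D1:**
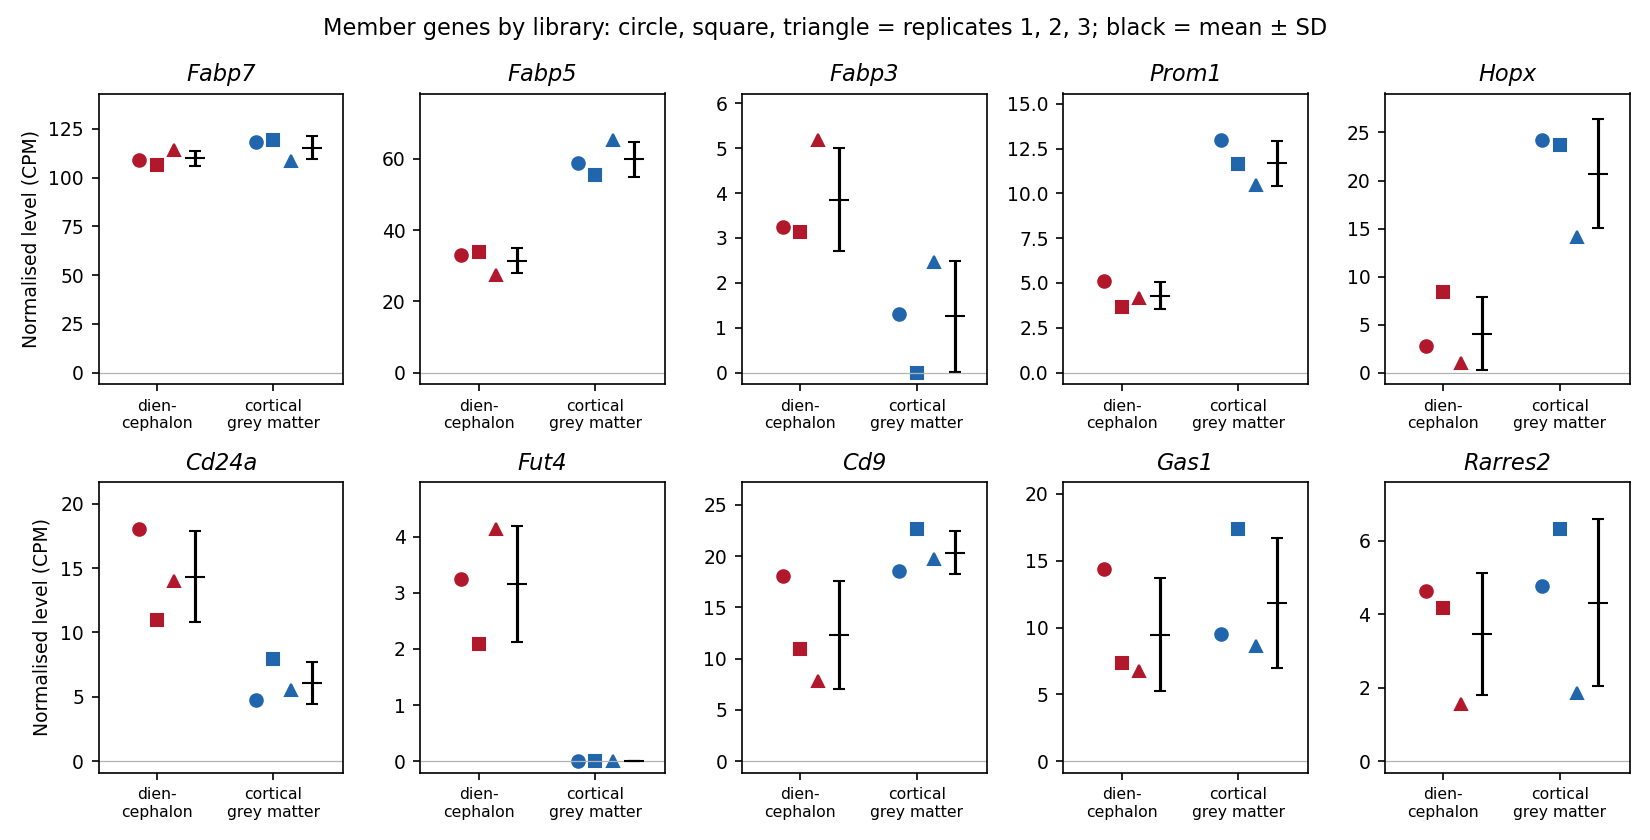
Level of each member in each library (y axis, CPM after TMM scaling, one panel per gene with its own axis) for diencephalon in red and cortical grey matter in blue, with the mean ± SD of 3 libraries in black. Fabp5, Prom1, Hopx and Cd9 lie lower in all 3 diencephalic libraries, Cd24a, Fut4 and Fabp3 lie higher, and Fabp7, Gas1 and Rarres2 overlap.

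Start-site sequences are shown for a member that did not pass (Fabp7), the member with the largest decrease (Hopx) and the member counted in 1 region only (Fut4). They run from 250 bases before to 50 bases after the annotated start, 5′ to 3′ on the gene's strand, from RefSeq on build GRCm38.p6, which is not the build of the counts. Of the 10 members 7 had such a window, with 9 windows in all because Hopx and Prom1 have a pair of starts each; Fabp5, Rarres2 and Cd24a had none. Capitals mark matches, on either strand, to 7 motifs: the CCAAT box (CCAAT, in 37.4% of 32851 windows of the same length), the GC box (GGGCGG, 35.7%), the TATA box (TATAAA, 13.6%), an E-box (CACGTG, 7.15%), the RBPJ site of Notch signalling (GTGGGAA, 6.38%), the palindromic SMAD site (GTCTAGAC, 0.213%) and a GC-rich SMAD site (GGCGCC, 11.9%).
Fabp7, chr10:57784673-57784972, plus strand: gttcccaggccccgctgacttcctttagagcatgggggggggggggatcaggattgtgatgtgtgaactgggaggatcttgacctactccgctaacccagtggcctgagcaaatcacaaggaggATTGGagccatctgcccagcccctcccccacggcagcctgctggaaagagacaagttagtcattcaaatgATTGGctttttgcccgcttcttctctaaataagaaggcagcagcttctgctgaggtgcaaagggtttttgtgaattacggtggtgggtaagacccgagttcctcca
Hopx, chr5:77115074-77115373, minus strand: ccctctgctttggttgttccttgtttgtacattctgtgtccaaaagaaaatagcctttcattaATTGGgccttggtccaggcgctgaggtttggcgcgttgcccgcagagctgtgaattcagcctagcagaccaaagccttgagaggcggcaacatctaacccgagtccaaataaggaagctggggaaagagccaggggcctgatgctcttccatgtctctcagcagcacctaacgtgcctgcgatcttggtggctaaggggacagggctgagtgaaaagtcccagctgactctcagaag
Hopx, chr5:77095218-77095517, minus strand: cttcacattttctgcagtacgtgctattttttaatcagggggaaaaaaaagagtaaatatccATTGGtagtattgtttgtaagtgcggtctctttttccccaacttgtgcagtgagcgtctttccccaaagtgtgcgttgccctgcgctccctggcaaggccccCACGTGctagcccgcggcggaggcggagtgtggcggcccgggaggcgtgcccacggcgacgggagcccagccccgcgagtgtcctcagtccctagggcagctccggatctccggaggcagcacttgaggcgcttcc
Fut4, chr9:14752073-14752372, minus strand: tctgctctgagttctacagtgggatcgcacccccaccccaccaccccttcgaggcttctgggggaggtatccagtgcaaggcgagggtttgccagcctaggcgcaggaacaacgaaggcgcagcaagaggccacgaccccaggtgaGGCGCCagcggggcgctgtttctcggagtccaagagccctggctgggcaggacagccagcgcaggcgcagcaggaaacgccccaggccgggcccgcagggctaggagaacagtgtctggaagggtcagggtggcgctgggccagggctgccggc
The Fabp7 window held 2 CCAAT matches and each Hopx window 1, the second also with the E-box. The Fut4 window held 1 GC-rich SMAD match and was the richest of these in G and C (68.0%, against a median of 52.7% over all windows). The palindromic SMAD site and the TATA box were found in 0 of the 9 member windows, which says only that these letters are not in these windows. The matches are given as descriptions and were not related to the counts.

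Fabp7, which binds docosahexaenoic acid and related polyunsaturated fatty acids, did not pass the test between the regions. It was at 109, 107 and 114 CPM in diencephalon replicates 1 to 3 and at 118, 119 and 108 CPM in cortical grey matter replicates 1 to 3. The groups overlapped through cortical grey matter replicate 3, the lowest cortical library. The log2 difference, diencephalon minus cortex, was -0.07 ± 0.13 (SE, 95% interval -0.34 to 0.20, edgeR adjusted p = 0.716). Its direction depended on the scaling. In TPM, a scale on which the median over genes was shifted by 0.22, the diencephalic libraries (681, 686 and 731 TPM) all lay above the cortical ones (658, 641 and 599 TPM), with a log2 difference of 0.14 ± 0.11 (limma adjusted p = 0.384), smaller than that shift. With the trend of the differences on gene length removed, the log2 difference was 0.35 ± 0.13 and passed (edgeR adjusted p = 0.0484); its single listed transcript is 762 bases long.

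Fabp5, the epidermal-type carrier, which also delivers ligands to PPAR-delta, was lower in diencephalon. Its level was 32.9, 34.0 and 27.5 CPM in the diencephalic libraries and 58.8, 55.4 and 65.3 CPM in the cortical ones. Each diencephalic library was below each cortical one, with a 1.90-fold lower level (log2 difference -0.92 ± 0.18, edgeR adjusted p = 0.000537). The difference passed in all 17 alternative settings run, between -0.98 and -0.58, the latter with the length trend removed. In the same libraries the 10 endothelial markers summed to a 2.01-fold lower level in diencephalon, or 1.46-fold without the most abundant, Cdh5. Of the 4 tested, 2 fell, Cdh5 and Itm2a. The others, Flt1 (14.9 ± 2.86 against 15.5 ± 4.02 CPM) and Slco1a4 (8.35 ± 1.33 against 8.65 ± 3.76 CPM), did not pass. The 11 meningeal and fibroblast markers summed to a 5.84-fold lower level, or 2.84-fold without Ptgds, and 10 fell. Their part in the values of Fabp5 was not tested.

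Fabp3, the heart-type carrier, had few counts and was not tested with the other genes. Diencephalon replicates 1 to 3 had 7, 6 and 10 counts and the cortical replicates 3, 0 and 4, so the groups did not overlap. The ratio of summed counts, scaled to library size, was 3.19 (exact 95% interval 1.33 to 8.81, counting error only). An exact two-sided permutation test over the 6 libraries gave p = 0.1, the smallest that 3 against 3 allows. In edgeR's fit without a count filter, which tested 16615 genes and called 21.2% of them, the adjusted p of Fabp3 was 0.118.

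The sum of the 3 carriers depended on the scale. In TPM it was 861, 875 and 906 in diencephalon and 915, 866 and 915 in cortex, which overlap. In CPM it was 145, 144 and 147 in diencephalon and 179, 175 and 176 in cortex, lower in all diencephalic libraries. The make-up of the TPM sum also differed, which restates the values of the single carriers and is not a further result. Fabp7 took 79.1%, 78.3% and 80.7% of it in the diencephalic libraries and 71.9%, 74.1% and 65.5% in the cortical ones, and the ratio of Fabp7 to Fabp5 was 4.40, 4.18 and 5.52 against 2.65, 2.86 and 2.01. The groups did not overlap in either measure. For single genes in CPM, 42.6% of those tested did not overlap between the regions.

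**Figure D2:**
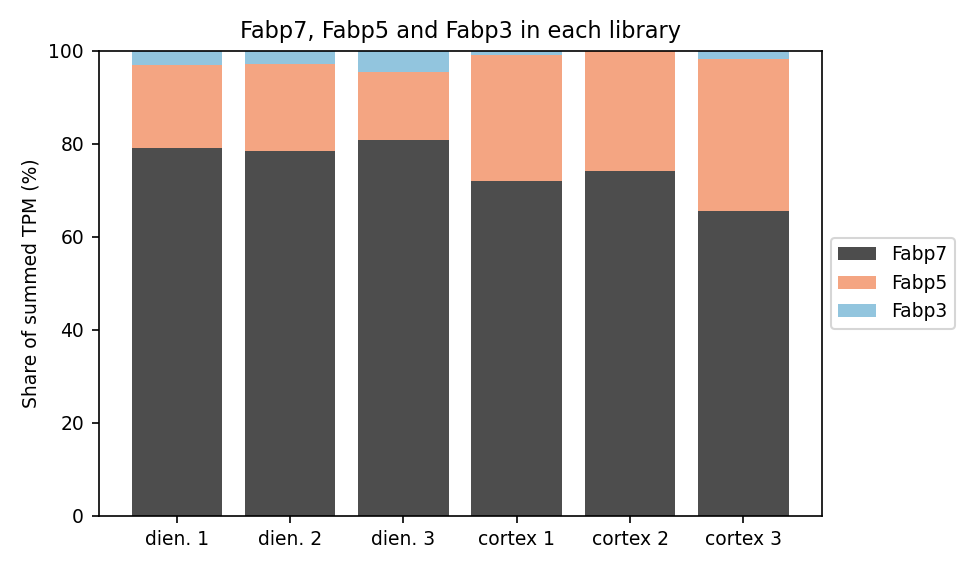
Share of the summed TPM of the carrier genes (y axis, %) taken by Fabp7 in grey, Fabp5 in orange and Fabp3 in blue, one bar per library. The Fabp7 share is 78.3% to 80.7% in diencephalon and 65.5% to 74.1% in cortical grey matter.

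The wider family of intracellular lipid binding proteins was mostly at low counts. Crabp2, which carries retinoic acid to its receptor, had 0 counts in the diencephalic libraries and 7, 6 and 7 in the cortical ones. Taking 3 counts over the diencephalic group as the floor gave a cortex to diencephalon ratio of 6.86 for Crabp2. That figure leaves out the counting error of the cortical counts. The exact 95% interval of the ratio, counting error only, had a lower end of 5.08. Crabp1 had 2 counts, Rbp2 2 and Rbp7 1 in all libraries together, and Fabp1, Fabp2, Fabp4, Fabp6, Fabp9, Fabp12 and Pmp2 had none. Fabp4 is used as a marker of peripheral endothelium and fat, and Pmp2 of myelinating Schwann cells.

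Among 12 genes of fatty acid uptake and activation, 11 were tested, 1 rose, 0 fell and 10 did not pass in edgeR, with a median log2 difference of -0.02 against 0.01 over all tested genes. The gene that rose was Slc27a4, a fatty acid transport protein, at 26.9 ± 2.51 CPM in diencephalon and 13.9 ± 2.97 CPM in cortex, a 1.96-fold difference (edgeR adjusted p = 0.00529). The transporter Slc27a1 and the acyl-CoA synthetase Acsl5 lay at the threshold, with log2 differences of 0.42 and -0.97 (edgeR adjusted p = 0.0504 and 0.0505). The counts were 2 higher and 1 lower with RLE scaling, limma voom or the replicate block, 1 and 0 with DESeq2, 3 and 0 on log2(TPM + 1), 1 and 2 without diencephalon replicate 1, 2 and 0 without cortical replicate 1, and 1 and 1 without cortical replicate 3. Of the PPAR receptors, to which carriers of this family can deliver ligands, and their RXR partners, 4 of 6 were tested and 1 fell. Ppara was at 20.3 ± 0.44 against 32.1 ± 7.55 CPM (edgeR adjusted p = 0.0335). Significance did not survive leaving out cortical grey matter replicate 1 (0.192), or any 1 diencephalon replicate (0.0754, 0.0863 and 0.0849), DESeq2 (0.0742) or the TPM scale, with a range of 0.0152 to 0.393. Ppard, the receptor linked to Fabp5, was at 64.5 ± 10.8 and 67.2 ± 11.8 CPM.

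Hopx, a small homeodomain protein that does not bind DNA and marks outer radial glia and several adult stem cell pools, showed the largest difference among the tested members. It was at 2.78, 8.36 and 1.04 CPM in the diencephalic libraries, which is 6, 16 and 2 counts, and at 24.2, 23.7 and 14.2 CPM in the cortical ones. The groups did not overlap, with diencephalon replicate 2 the highest of its region and cortical grey matter replicate 3 the lowest of its own. The level was 5.15-fold lower in diencephalon (log2 difference -2.36 ± 0.45, edgeR adjusted p = 0.000431) and passed in all 16 alternatives that gave a value. The size depended on the diencephalic libraries. Without replicate 2 the log2 difference was -3.39 (edgeR adjusted p = 2.04e-05), and without replicate 3 it was -1.92 (edgeR adjusted p = 0.00336). The files list 3 Hopx transcripts, and the abundance-weighted length was 1105 bases in every library.

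Other genes described in outer radial glia were lower in part. Of 8 listed, 7 were tested, 4 fell including Hopx, 1 rose and 2 did not pass, with a median log2 difference of -0.51. Among all tested genes 14.8% fell and 14.9% rose. In this list 3 fell with limma voom, and 3 to 4 fell with 1 library left out. Tnc, the matrix protein tenascin C, was 4.76-fold lower (8.52 ± 4.46 against 40.1 ± 16.7 CPM, edgeR adjusted p = 0.000365), with 8.34, 13.1 and 4.14 CPM in diencephalon and 51.5, 48.0 and 20.9 CPM in cortex. As for Hopx, diencephalon replicate 2 was the highest and cortical grey matter replicate 3 the lowest library of its region. Fam107a, a stress-responsive actin-binding protein, was 1.92-fold lower (edgeR adjusted p = 2.15e-05), while the cytokine receptor subunit gene Il6st was 1.37-fold higher (edgeR adjusted p = 0.00709). Ptprz1, the receptor for pleiotrophin, was at 1058 ± 190 against 1509 ± 407 CPM (edgeR adjusted p = 0.0435). Ptprz1 did not pass without diencephalon replicate 2 or 3 (0.162 and 0.161), when cortical replicate 1 or 2 was left out (0.133 and 0.190), with limma voom (0.0796) and on the TPM scale, over a range of 1.9e-05 to 0.393.

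Prom1 encodes prominin-1, a membrane glycoprotein of cell protrusions used to sort neural stem cells. It was at 5.10, 3.66 and 4.14 CPM in diencephalon and 13.0, 11.6 and 10.5 CPM in cortex. All diencephalic libraries were below all cortical ones, and the level was 2.69-fold lower (log2 difference -1.43 ± 0.37, edgeR adjusted p = 0.00564). On the TPM scale the values were 5.49, 4.55 and 6.04 against 11.9, 10.2 and 10.1 TPM, and the difference of -0.89 ± 0.32 did not pass (limma adjusted p = 0.0786, range over alternatives 0.00399 to 0.0909). TPM divides by gene length, and for this gene of 8 listed transcripts the files give a length of 3537, 3156 and 2728 bases in diencephalon and 3699, 3732 and 3537 bases in cortex. With 7 to 30 counts per library, the share of each transcript is poorly determined. On the TPM scale the median over all genes was also shifted by 0.22. The part of length or of that shift in the lost call was not tested. The paralogue Prom2 had 10 counts in diencephalon and 3 in cortex.

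Cd24a, a heavily glycosylated surface protein of neuroblasts and ependymal cells, went the other way. It was at 18.1, 10.98 and 13.99 CPM in diencephalon and 4.76, 7.91 and 5.54 CPM in cortex, without overlap, and 2.38-fold higher in diencephalon (log2 difference 1.25 ± 0.35, edgeR adjusted p = 0.00988). The call was lost without diencephalon replicate 1 (edgeR adjusted p = 0.0658) or cortical grey matter replicate 1 (0.0552), over a range of 0.00587 to 0.0658. Of its reported binding partners, the axonal adhesion genes L1cam and Cntn2 were 2.07-fold and 2.67-fold higher (edgeR adjusted p = 3.64e-06 and 4.75e-07). Siglecg had 1 count in each region and Selp none. In the same libraries the listed neuron markers summed to a 1.51-fold lower level in diencephalon, or 1.14-fold without Snap25. Cortical excitatory neuron markers were 6.22-fold lower and subcortical neuron markers 14.2-fold higher. The part of neurons in these values was not tested.

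The 8 listed ependymal markers summed to 43.1, 29.3 and 42.5 CPM in diencephalon and 23.8, 19.0 and 14.2 CPM in cortex, where Tmem212, Dynlrb2 and Pifo were at 0 counts. Of the 3 tested, 2 rose; Rsph1, the most abundant in cortex, was at 9.38 ± 2.64 against 11.4 ± 1.03 CPM and did not pass (edgeR adjusted p = 0.552). Foxj1, the regulator of motile cilia, was at 11.4 ± 3.15 against 2.99 ± 2.32 CPM. The choroid plexus sum was 9.42-fold higher in diencephalon (125 to 152 against 3.08 to 30.6 CPM). The 7 neuroblast markers summed to 261 to 311 CPM in diencephalon and 239 to 287 CPM in cortex, with Sp8 and Igfbpl1 at 0 counts in cortex. The part of these cells in the values of Cd24a and Prom1 was not tested.

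Fut4 encodes a fucosyltransferase that can make the Lewis X sugar, the epitope used to sort neural stem cells. It had 7, 4 and 8 counts in diencephalon and none in any cortical library, or 3.25, 2.09 and 4.14 CPM against 0. Taking 3 counts over the cortical group as the floor gave a diencephalon to cortex ratio of 6.16 for Fut4. That figure leaves out the counting error of the diencephalic counts. The exact 95% interval of the ratio, counting error only, had a lower end of 4.54. The exact permutation test gave p = 0.1, the smallest possible. Fut4 reached edgeR's fit without a count filter (adjusted p = 0.00136). It also reached the limma fit of log2(TPM + 1), which called 21.5% of 14296 genes. Fut4 entered both fits only through its diencephalic values, so nothing is read from either. A related pseudogene, Fut4-ps1, is listed at 0 counts in all libraries.

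Of 10 fucosyltransferase genes, Fut4 included, 6 were tested and 0 passed in either direction in edgeR, DESeq2 or limma voom; in edgeR, Pofut1 alone had an unadjusted p under 0.05 (0.0440). Fut9, the enzyme known to make most Lewis X in the brain, was far more abundant than Fut4, at 95.2 ± 21.2 TPM in cortex and 103 ± 13.3 TPM in diencephalon against 0 and 3.33 ± 1.10 TPM. On the CPM scale Fut9 was at 325, 294 and 376 in diencephalon and 302, 314 and 438 in cortex, with a log2 difference of -0.08 ± 0.14 (edgeR adjusted p = 0.714). The direction turned to 0.13 on the TPM scale and to 0.10 without cortical grey matter replicate 3. Fut8, which adds the core fucose of N-glycans, was at 49.97 ± 4.62 CPM in diencephalon and 49.9 ± 1.62 CPM in cortex, and the sign of its small difference changed between settings. Fut10 and Fut11 had log2 differences of 0.42 ± 0.35 and 0.31 ± 0.37, and Pofut1 and Pofut2, which fucosylate Notch and thrombospondin repeats, of 0.60 ± 0.28 and 0.54 ± 0.33. Pofut1 passed without diencephalon replicate 1 (edgeR adjusted p = 0.0421, range 0.0421 to 0.358). Fut1 had 1 count in each region, Fut2 had 3 in diencephalon and 2 in cortex, and Fut7 had none.

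Cd9, a tetraspanin that organises integrins and other surface proteins, was at 18.1, 10.98 and 7.77 CPM in diencephalon and 18.6, 22.7 and 19.7 CPM in cortex. The groups did not overlap, but diencephalon replicate 1 reached nearly the lowest cortical value. The difference of -0.71 ± 0.30 did not pass (edgeR adjusted p = 0.0797); without diencephalon replicate 1 it was -1.11 and passed (edgeR adjusted p = 0.0168, range 0.0168 to 0.313). Oligodendrocyte markers, cells in which Cd9 is also made, were 2.23-fold higher in diencephalon in the same libraries, and their part in the values of Cd9 was not tested.

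Tetraspanins moved both ways. Of 26 genes of the family and its partners, Cd9 included, 21 were tested, 7 rose, 3 fell and 11 did not pass, with a median log2 difference of -0.01. Among all tested genes 14.9% rose and 14.8% fell. Without diencephalon replicate 3, 4 of 22 tetraspanin genes rose and 3 fell. Tspan2, known from oligodendrocytes, was 3.10-fold higher in diencephalon (156 ± 23.0 against 50.5 ± 6.08 CPM, edgeR adjusted p = 5.31e-08) and Tspan18 2.91-fold higher (edgeR adjusted p = 1.13e-05). Tspan7, a widely expressed neural tetraspanin, was 4.31-fold lower (157 ± 37.5 against 677 ± 148 CPM, edgeR adjusted p = 4.7e-07), and Tspan13 was 2.09-fold lower (edgeR adjusted p = 0.000868).

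Gas1, a lipid-anchored surface protein that halts growth when overproduced and acts as a co-receptor for Sonic hedgehog, was at 14.4, 7.32 and 6.73 CPM in diencephalon and 9.51, 17.4 and 8.62 CPM in cortex. The groups overlapped, with diencephalon replicate 1 and cortical grey matter replicate 2 high, and the log2 difference was -0.31 ± 0.37 (edgeR adjusted p = 0.580). The meningeal and fibroblast markers, whose cells also make Gas1, were highest in the same libraries within their regions, at 1246 CPM in diencephalon replicate 1 and 8116 CPM in cortical grey matter replicate 2. The part of those cells was not tested. Without cortical grey matter replicate 2 the log2 difference turned to 0.06.

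In the Hedgehog list of 12 genes, Gas1 included, 9 were tested, 3 rose, 1 fell and 5 did not pass. The shares over all tested genes were 14.9% higher and 14.8% lower. The other co-receptor genes Cdon and Boc had log2 differences of 0.00 ± 0.22 and 0.03 ± 0.36. The receptor and feedback genes Ptch1 and Hhip and the target Gli1 were 3.81-fold, 3.52-fold and 3.85-fold higher in diencephalon (edgeR adjusted p = 1.99e-09, 0.000321 and 0.00103). Gli3, mainly a repressor of the pathway, was 1.95-fold lower (edgeR adjusted p = 6.45e-05).

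Rarres2 encodes chemerin, a secreted ligand that becomes active once its end is cut off. It had 10, 8 and 3 counts in diencephalon and 11, 11.5 and 3 expected counts in cortex, and was lowest in replicate 3 of both regions. The ratio of diencephalon to cortex was 0.785 (exact 95% interval 0.420 to 1.45, counting error only; exact permutation p = 0.5), which includes 1, and the libraries of the regions overlapped. In edgeR's fit without a count filter the adjusted p of Rarres2 was 0.725.

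Chemerin receptors were weakly expressed. Cmklr1, the signalling receptor, was at 16.7, 4.70 and 4.66 CPM in diencephalon and 4.76, 11.6 and 9.23 CPM in cortex (log2 difference 0.08 ± 0.48, edgeR adjusted p = 0.923). Diencephalon replicate 1 alone was above the cortical libraries. The log2 difference turned to -0.83 when it was left out (edgeR adjusted p = 0.242). Leaving out cortical replicate 1 turned it to -0.25 (edgeR adjusted p = 0.762). Gpr1 had 4 counts in diencephalon and 6 in cortex. Ccrl2, which binds chemerin without signalling, had 15 counts in diencephalon and 1 in cortex, a ratio of 14.6 (exact 95% interval 2.24 to 614).

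**Figure D3:**
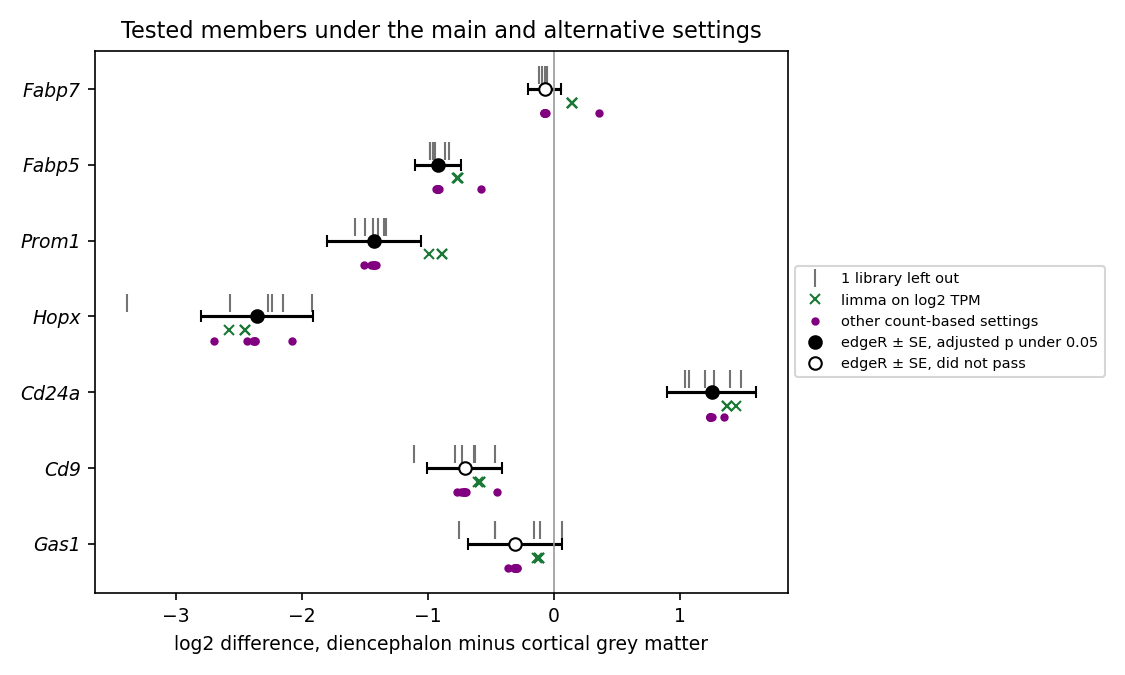
Log2 difference, diencephalon minus cortical grey matter (x axis), of the 7 tested members: edgeR estimate ± SE as circles (filled where adjusted p was under 0.05), with estimates after leaving out 1 library, from limma on log2 TPM and from other count-based settings. Fabp5, Prom1 and Hopx stay below 0 and Cd24a above 0 in all settings drawn, while Fabp7 and Gas1 fall on both sides.

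Other neural stem cell genes give the setting in which the markers stood. Of 18 listed, which do not include the members, 17 were tested, 9 fell, 3 rose and 5 did not pass, with a median log2 difference of -0.60. Over all tested genes 14.8% fell and 14.9% rose. The count depended on the setting: 8 fell and 2 rose with DESeq2, and 7 fell and 3 rose with limma voom. With 1 library left out, 6 to 10 fell and 2 to 3 rose. On log2(TPM + 1) 5 fell and 3 rose. The orphan receptor gene Nr2e1, needed for adult stem cell maintenance, was 3.25-fold lower in diencephalon, and the transcription factor gene Pax6 was 3.07-fold lower (edgeR adjusted p = 3.11e-06 and 3.28e-05). Lfng, a modifier of Notch receptors, was 3.00-fold higher (edgeR adjusted p = 0.000209). The intermediate filament gene Nes, the usual companion of these markers, had 26 counts in diencephalon and 30 in cortex and was not tested. Astrocyte markers, a list that shares Sox9 and Gfap with this one, were 1.58-fold lower in the same libraries, or 1.4-fold without Slc1a2. Of these 15 markers 7 fell and 1 rose, and their part in these counts was not tested.

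**Figure D4:**
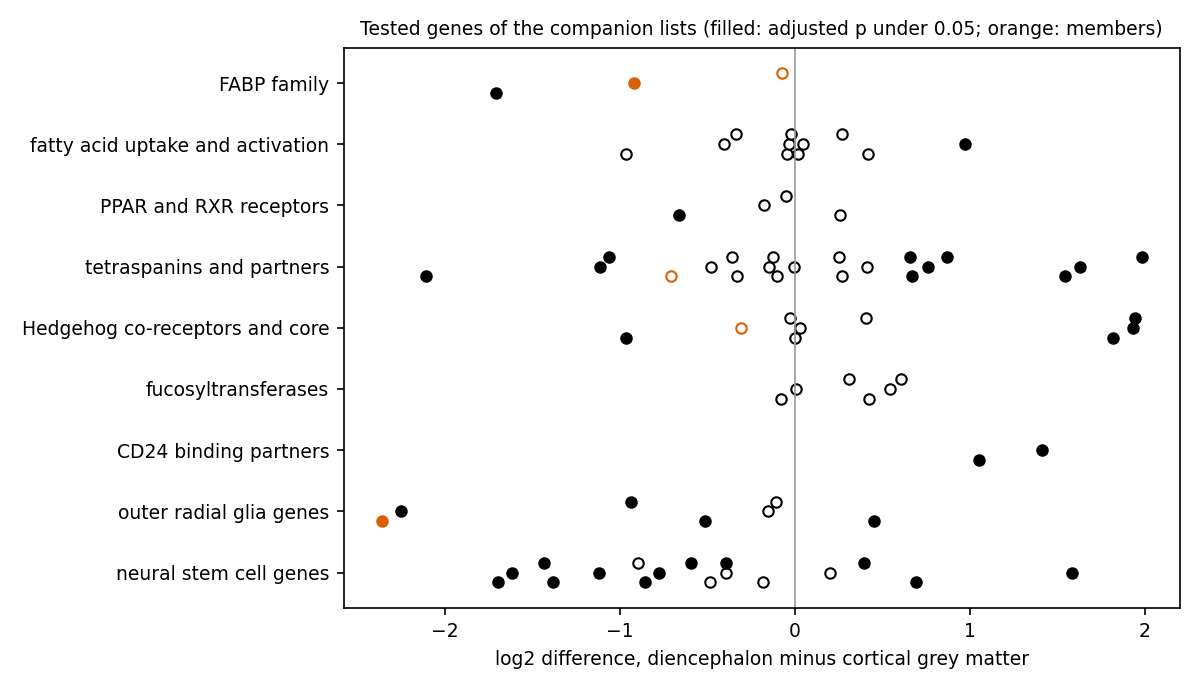
Log2 difference, diencephalon minus cortical grey matter (x axis), of each tested gene in the lists around the members; filled circles passed at an adjusted p under 0.05 and members are orange. In the neural stem cell list 9 genes fell and 3 rose, and in the tetraspanin list 3 fell and 7 rose.

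**Figure D5:**
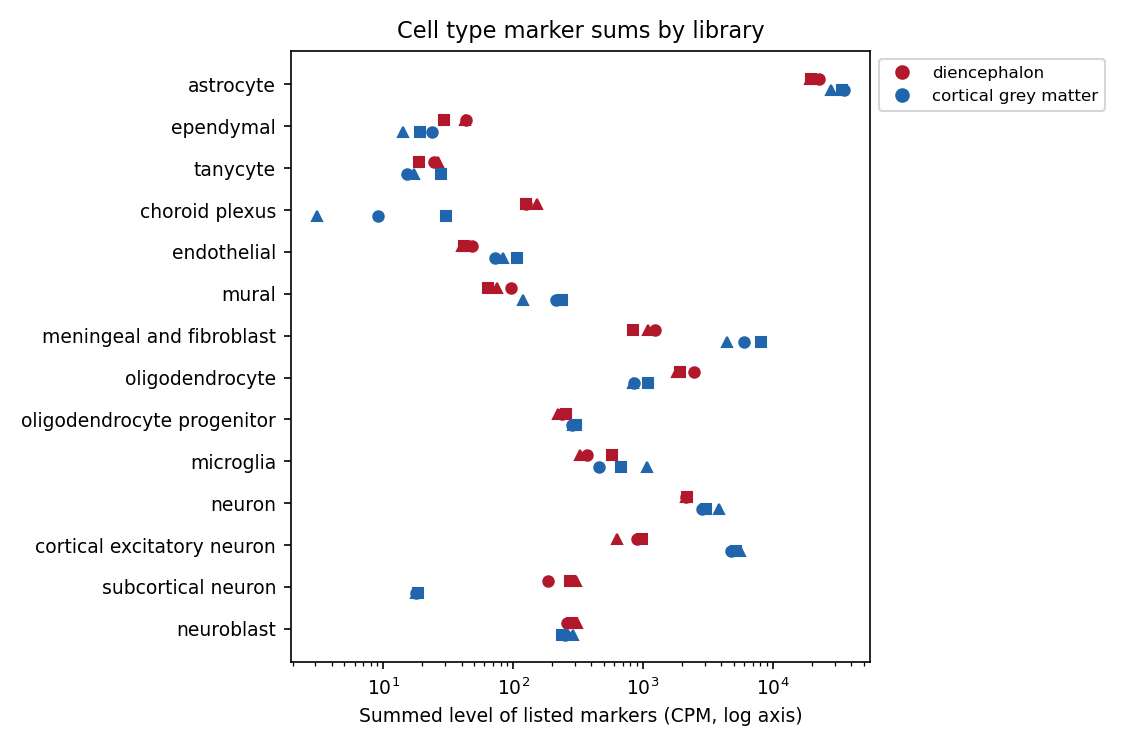
Summed level of the listed markers of each cell type (x axis, CPM on a log axis), one symbol per library (circle, square and triangle for replicates 1, 2 and 3). Meningeal and fibroblast sums are 831 to 1246 CPM in diencephalon and 4477 to 8116 CPM in cortical grey matter, and oligodendrocyte sums are 1833 to 2455 against 844 to 1088 CPM.

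The genes whose level over the 6 libraries was most like that of Fabp7, the only member with a mean of at least 50 CPM, were Bai3, an adhesion receptor of synapses, and Smarca4, a chromatin remodeller. Their log2 CPM profiles, each centred on its mean, differed from that of Fabp7 by a root mean square of 0.03 and 0.04, among 8596 genes compared.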

How the data were processed

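Ribosome-bound mRNA was sequenced on an Ion Proton instrument after Ovation amplification, per the labels' protocols. RSEM and build mm9 are named per the submitters' processing notes. The aligner, its version and the strandedness are not given in the sources used. The deposited expected counts share reads between transcripts, so 3.64% to 3.99% of values per library were not whole. They were rounded, which moved totals by at most 6.94. Deposited TPM values served for comparing genes and as an alternative; the FPKM values the authors deposited were not used. Counts were filtered (filterByExpr, minimum count 10), scaled by TMM and fitted with edgeR 4.0.16 (limma 3.58.1, DESeq2 1.42.0, R 4.3.3), region being the sole covariate. SEs come from the F statistic. Genes under the filter were compared by summed counts with exact binomial 95% intervals and an exact permutation test. Amplified reads carry no stated molecular identifiers, so intervals cover counting error only. Floors cover the counting error of the group without counts and not that of the other group. In a library, 3 counts correspond to 1.30 to 1.85 CPM. Replicates are pools of mice.

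Members, gene lists and tests were chosen with earlier results of these data known. Named companion genes were all tested or counted members of the carrier, fucosyltransferase, prominin and chemerin receptor lists. Each other list gave up to 4 genes with the smallest adjusted p. Ppard, Slc27a1, Acsl5, Nes, Foxj1, Rsph1, Itm2a, Flt1, Slco1a4, Cdon, Boc, Siglecg, Selp and the genes at 0 were chosen after seeing their values. Some genes the rule names are not reported here. Other settings tried comprised RLE scaling, no filter, a minimum count of 30, DESeq2, limma voom, a replicate block, limma on log2(TPM + 1) and log2(TPM + 0.1) (genes averaging 1 TPM or more), log2(TPM + 1) with no filter, a covariate marking libraries whose Y-linked genes summed to under 50 CPM, an offset for gene length (spline with 5 degrees of freedom), and leaving out each library. The fits were tested on simulated counts.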

Additional observations from a re-analysis of the deposited data

How the results depend on the processing

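Fabp5 and Hopx kept their direction and their call in all alternatives that gave a value. On log2(TPM + 1), log2(TPM + 0.1) and log2(TPM + 1) with no filter, 958, 908 and 920 genes were lower in diencephalon against 1560, and 68.9%, 68.7% and 68.3% of calls were higher against 50.2%. In these settings Prom1 no longer passed (-0.89, -0.99 and -0.89, limma adjusted p = 0.0786, 0.0749 and 0.0909), Fabp7 turned to 0.145 in each and Fut9 to 0.13. With the length trend removed Fabp7 turned to 0.35 and Fut8 to -0.00184. Fut8 was also at -0.00379 with RLE, -0.00403 with DESeq2 and -0.000387 with no count filter, and Cmklr1 at -0.0436 with limma voom. Leaving out 1 library gave 1.04 to 1.48 for Cd24a, -1.11 to -0.47 for Cd9, -0.752 to 0.0642 for Gas1, -0.83 to 0.37 for Cmklr1, -0.0699 to 0.0629 for Fut8 and -0.19 to 0.10 for Fut9. The causes were not tested. For the companion genes named, 465 alternative values kept direction and call, 24 lost and 1 gained a call and 15 changed sign. Of the list counts, 331 stayed within 1.5 times and 43 did not. The replicate block gave 1506 genes higher and 1531 lower, changed no call of a member, and turned Cmklr1 to -0.0178. Deviations of libraries with the same number correlated at 0.06, -0.10 and 0.004, and diencephalon replicates 1 and 2 correlated best with cortical replicates 2 and 3, so the numbers were not taken as pairs. Depth limits Fut4, Fabp3 and Rarres2, which had 19, 23 and 21 counts in diencephalon and 0, 7 and 26 in cortex.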

Other observations

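Hopx and Tnc shared an order of libraries within each region: diencephalon replicate 2 was the highest diencephalic library and cortical grey matter replicate 3 the lowest cortical one for both. The share of all genes with this order was not computed. These 2 libraries had 8.36 and 0 CPM of Y-linked genes, so a low Y-linked level went with opposite ends of the order. With a term for those libraries the log2 difference of Hopx was -2.39 ± 0.45 (SE, edgeR adjusted p = 0.000261). In diencephalon replicate 1, by contrast, the members Prom1, Cd9, Gas1, Cd24a and Rarres2, and the receptor gene Cmklr1, were at their highest diencephalic level. The members Fabp7, Fabp5, Fabp3, Hopx and Fut4 were not. The share of all genes highest in that library was not computed.

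Pparg, a fatty acid receptor of fat cells and macrophages, had 2 counts in diencephalon and 26 in cortex, a cortex to diencephalon ratio of 13.4 (exact 95% interval 3.35 to 116). The exact permutation test gave p = 0.1, the smallest that 3 against 3 libraries allow. Pparg was named after its values were seen.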
